A study of Mus musculus with 7 samples.

Results

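Nuclear genes for the subunits of oxidative phosphorylation, the inner-membrane machinery with which mitochondria respire and make ATP, were compared between libraries labelled as CD8+ T cells from treated and untreated mice. Members were the gene names that begin with Nduf and a subunit letter (a, b, c, s or v) and number, the 4 succinate dehydrogenase genes Sdha to Sdhd, names that begin with Uqcr, Cyc1, Cox4 to Cox8 and names that begin with Atp5. Of 107 matching names, 14 names of pseudogenes, none above 2.26 TPM in any library, were left out. This gave 93 members among the 56422 gene symbols of the table, 43 in complex I, 4 in complex II, 9 in complex III, 19 in complex IV and 18 in complex V. The rule uses names and no measured value.

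The libraries were made from poly(A) RNA of samples that carry the label CD8+ T cells and came from ascites, the fluid that collects in the abdomen, in mouse models of peritoneal metastasis. The 4 control libraries came from mice with no treatment and the 3 treated libraries from mice given butyrate with propionate, a pair of short-chain fatty acids that gut microbes release when they ferment fibre. The series as a whole deals with mannose and anti-PD-1 therapy of ovarian cancer. Tumour model, strain, age, dose and duration are not in the sources used here. One treated column carries a number that no treated sample has, and it is called the third treated library. Nothing states that the libraries of a group came from separate animals, so the p-values reflect only how far these libraries vary, and that variation may be technical. Expression is in TPM, which corrects reads for transcript length and gives every library one fixed total, so sequencing depth is unknown. In bulk RNA, fewer cells of a type and less RNA per cell cannot be told apart.

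Complex I takes electrons from NADH and complex II takes them from succinate. Coenzyme Q carries them to complex III, cytochrome c carries them on to complex IV, and oxygen accepts them there. Complexes I, III and IV pump protons, and complex V, the ATP synthase, uses the gradient to make ATP. The mitochondrial genome encodes core subunits of complexes I, III, IV and V, and nuclear genes encode the rest, most of which are described here. The name rule also takes in associated proteins such as the inhibitor Atp5if1. In CD8+ T cells mitochondrial respiration is known to sustain quiescent and memory cells, while activated cells also rely heavily on glycolysis.

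Many of these genes are known targets of the transcription factors NRF1, GABP and YY1. Of the 93 members, 69 had a promoter in RefSeq (table of build GRCm38.p6, 250 bases before to 50 bases after the start), and these were searched on both strands. The NRF1 motif, the letters in capitals in the windows that follow, stood in 17 of the 69 (24.6%). It stood in 11.1% of the 10383 tested genes with a promoter and in 5.19% of all 27025 genes with a promoter. A gene counted when any of its promoters held the motif. The GABP motif CCGGAAG stood in 16 (23.2%), against 20.1% and 9.93%, and the YY1 motif AANATGGCG in 10 (14.5%), against 5.82% and 2.76%. At least one motif was present in 37 member promoters, more than one in 6 and none in 32. A match describes these letters only and is not a measured binding site. The windows of 5 members of complexes I, II, IV and V follow, with the NRF1 motif in capitals, to show the shared element in genes described in the results.
Ndufa11, chr17:56717687-56717726, plus strand: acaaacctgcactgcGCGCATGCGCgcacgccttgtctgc
Ndufa8, chr2:36049344-36049383, minus strand: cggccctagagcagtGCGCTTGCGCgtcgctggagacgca
Sdha, chr13:74350271-74350310, minus strand: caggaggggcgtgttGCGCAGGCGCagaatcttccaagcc
Cox6a1, chr5:115349051-115349090, minus strand: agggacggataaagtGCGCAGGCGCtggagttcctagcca
Atp5mc2, chr15:102671065-102671104, minus strand: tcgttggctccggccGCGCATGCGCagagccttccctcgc
The Ndufa8 window matches on the opposite strand. Control means of these 5 genes ran from 11.1 TPM for Atp5mc2 to 403 TPM for Cox6a1, and none of the 5 passed the test over all genes. Of the 3 members that did pass, only Ndufc2 had a promoter in the table, and it held none of the 3 motifs.

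Libraries differed in ways that touch every value that follows. Mitochondrially encoded genes held 13.6% to 18.3% of the TPM of named genes in 6 libraries and 33.0% in the third treated library, and because TPM is a share, all other genes in that library are lowered. Markers of T cell identity summed to 161 to 285 TPM in control libraries and to 1507, 3359 and 792 TPM in treated libraries 1, 2 and the third, and all 19 of 19 rose in the limma test used for the subunits. Against the label, Cd8a, which marks the labelled cell type, stood at only 7.95 to 18.0 TPM in control libraries. Macrophage and monocyte markers summed to 6290 to 15319 TPM in control and 3491 to 4268 TPM in treated libraries (3 of 15 fell). Apoe was the largest part of the control sums, at 3741 to 8468 TPM against 1417 to 2315.5 TPM in treated libraries. Lyz2, the next largest there, overlapped between the groups, at 1431 to 4112 against 1065 to 1656 TPM. Estimates lay below 0 for 13 of the 15 and above 0 for Adgre1 (0.14) and Ccr2 (0.49). Markers of tumour epithelium and mesothelium summed to 2349 to 2812 TPM in control and 885 to 1686 TPM in treated libraries, where 8 of 12 tested fell and Cldn7 was listed at 0 throughout. Fibroblast markers summed to 390 to 711 and 285 to 414 TPM (4 of 6 fell), B and plasma cell markers to 104 to 328 and 224 to 348 TPM (0 of 8 changed), and neutrophil markers to 18.6 to 424 and 49.1 to 116 TPM (0 of 4 changed). Natural killer cell markers summed to 7.48 to 11.1 and 41.0 to 112 TPM, and 3 of 7 were tested, Klra7, Klrk1 and Eomes, which rose. Ncr1, Klrb1c, Klra8 and Klra4 did not reach the filter and had at most 2.96 TPM in any library. T cell markers rose in the same libraries, and bulk RNA does not show which cells Klra7, Klrk1 and Eomes came from. Erythroid markers summed to 95.3 to 504 and 24.5 to 84.7 TPM (4 of 4 tested fell). Without the third treated library 0 macrophage and monocyte, 5 epithelium and mesothelium, 1 fibroblast and 0 erythroid markers fell, while the 19 T cell and 3 natural killer cell markers still rose. The part that these cell mixtures play in the subunit values was not tested.

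Subunit transcripts took a smaller share of the treated libraries in every complex. Summed over all 93 members, control libraries 1 to 4 held 20985, 24974, 22776 and 21299.6 TPM, and treated libraries 1, 2 and the third held 19654, 18326 and 12827 TPM. All 3 treated libraries lay below all 4 controls, with treated library 1 close beneath the lowest control and the third treated library far below the others. The treated mean was 0.752 of the control mean (22509 ± 1819 against 16936 ± 3619 TPM, SD, n = 4 and 3).

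By complex the treated means were 0.732 (I), 0.741 (II), 0.743 (III), 0.755 (IV) and 0.774 (V) of the control means, so the 5 complexes differed little in this ratio. Complex I summed to 6233, 7487, 6613 and 6267 TPM in the controls and 5743, 5166 and 3699 TPM in the treated libraries. Complex V, at the other end, summed to 6436, 7872, 7175 and 6775 TPM against 6206, 6069 and 4119 TPM. With mitochondrially encoded genes left out and each library rescaled to the same total, the ratios were 0.781, 0.790, 0.792, 0.806 and 0.825 for complexes I to V. The groups did not overlap for any of the 5 complexes on these scales. After median-of-ratios scaling, which sets the typical gene to no difference, the ratios were 0.874, 0.884, 0.884, 0.903 and 0.924, and the groups overlapped in complex V. On that scale all members summed to 19578, 23317, 20119 and 19814 in the controls and 18568, 18525 and 18722 in the treated libraries, so the third treated library no longer stood apart. Sums over chosen members carry no test.

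**Figure D1:**
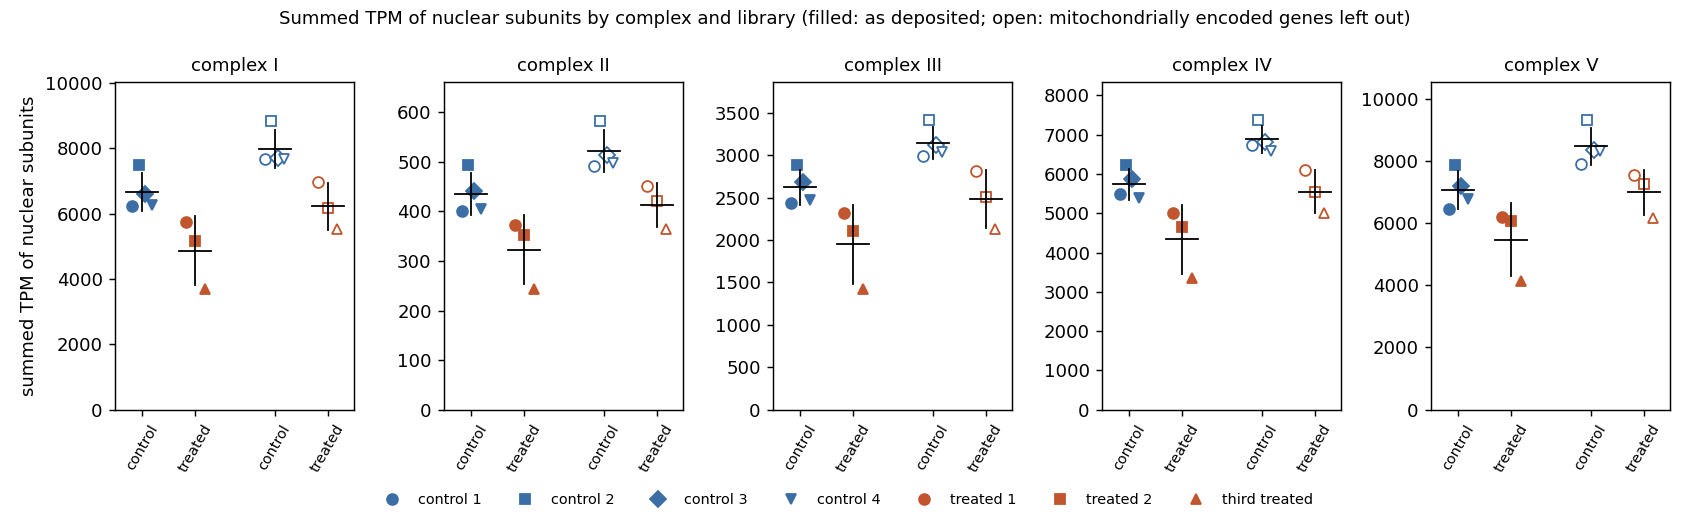
Summed TPM of the nuclear subunits (vertical axis) of each complex in every library, as deposited (filled) and after leaving out mitochondrially encoded genes (open); points are libraries, horizontal lines group means and vertical lines the SD (n = 4 control, 3 treated). In each panel the 3 treated libraries sit below the 4 controls, and the third treated library, at 3699 TPM for complex I as deposited, moves closer to the others when mitochondrially encoded genes are left out.

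Gene by gene, most subunits were lower in the treated libraries, but few passed the test over all genes. The filter, 3 or more libraries at 1 TPM or above, was passed by 84 of the 93 members, and differences are of log2(TPM + 1), treated minus control, which understates the change of low genes. Of the 84, 3 fell and 0 rose in limma with Benjamini-Hochberg adjustment over 14967 genes (adjusted p under 0.05). That is 3.57% of the members, beside 7.59% of all genes tested that fell and 4.30% that rose, so the share called was below the background. The 3 were Ndufc2 in complex I, Sdhc in complex II and Atp5if1 in complex V. At an unadjusted p under 0.05 there were 33 members (39.3%), beside 30.5% of all genes.

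The median difference of the 84 was -0.41, beside -0.24 over all genes, and 82 of the 84 estimates (97.6%) lay below 0, beside 73.4% over all genes. After median-of-ratios scaling the shares were 81.0% and 49.5%. The exceptions, Ndufb4b at 0.21 and Cox6b2 at 0.23, did not pass the test, and Ndufb4b, Ndufb4 and Ndufb4c are near-identical copies among which reads may be split. All treated libraries lay below all controls for 39 members (46.4%), beside 25.7% of all genes. After median-of-ratios scaling that count was 24 of 84, beside 2427 of 14980 genes. Of the 84 members, 82 were lowest in the third treated library (97.6%, beside 69.4% of all genes tested) and 65 were highest in control library 2 (77.4%, beside 25.2%). Treated library 1 lay below every control for 45 of 84 (53.6%, beside 32.7%), treated library 2 for 53 (63.1%, beside 43.2%) and the third treated library for 82 (97.6%, beside 75.0%).

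The count of 3 moved with the library left out. It was 27 without treated replicate 1 (32.1%, beside 19.8% of all genes), 1 without control replicate 1 (beside 4.70%), 0 without control replicate 2 (beside 3.95%), 1 without control replicate 4 (beside 5.20%) and 4 without the third treated library (beside 4.13%). With library weights, which count libraries that stand apart less, 33 members fell (39.3%), beside 28.2%. After leaving out mitochondrially encoded genes, 18 of 85 fell (21.2%), beside 12.1%. After median-of-ratios scaling 4 of 84 fell (4.76%), beside 6.42%, and 1 rose, beside 9.19%. Under this scaling the median of all genes moved from -0.24 to 0.00 and that of the members from -0.41 to -0.13, and 68 of 84 estimates lay below 0. Without the third treated library the medians were -0.08 for all genes and -0.22 for the members. The member that rose was Cox6a2, which reached the filter only through the treated libraries.

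**Figure D2:**
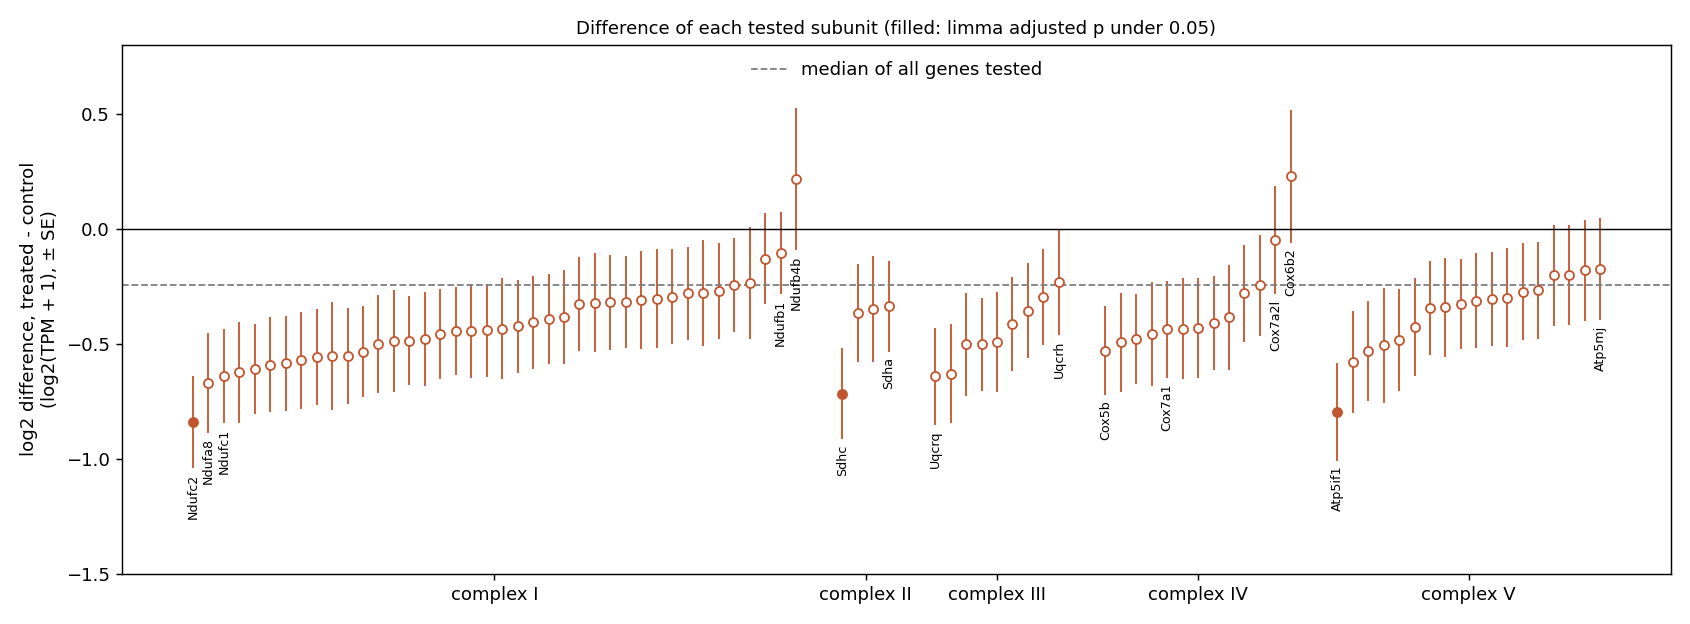
Difference in log2(TPM + 1), treated minus control, with its SE (vertical axis) for each of the 84 tested subunits, ordered within complexes I to V; filled points passed the test and the dashed line is the median of all genes, -0.24. The 3 filled points are Ndufc2, Sdhc and Atp5if1, and only Ndufb4b and Cox6b2 lie above 0.

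**Figure D3:**
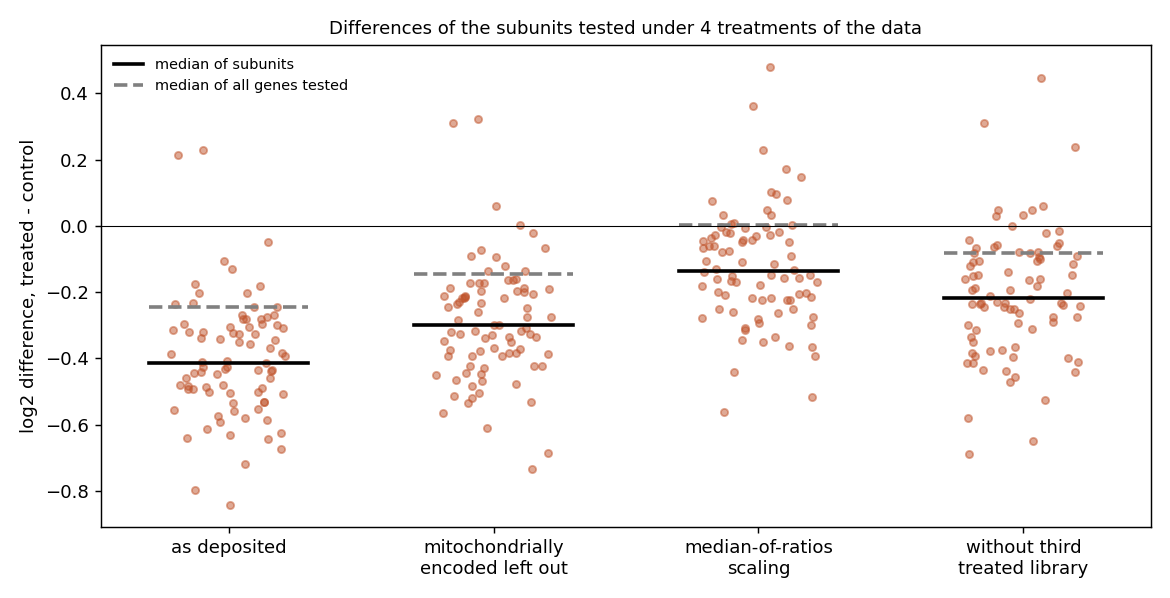
Differences in log2(TPM + 1), treated minus control (vertical axis), of the subunits tested as deposited, under the deposited scale, after leaving out mitochondrially encoded genes, after median-of-ratios scaling and without the third treated library; points are subunits, solid lines their median and dashed lines the median of all genes. The solid line lies below the dashed line in all 4 columns, -0.41 against -0.24 in the first and -0.13 against 0.00 in the third.

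Complex I, the NADH dehydrogenase that starts the chain, had 40 tested members with a median difference of -0.44, of which 1 fell. Ndufc2, a small subunit of the membrane arm, stood at 282, 349, 310.2 and 294 TPM in the controls and at 209, 175 and 138 TPM in the treated libraries. Every treated library lay well under every control. Its mean fell from 309 ± 29.1 to 174 ± 35.1 TPM (SD, n = 4 and 3), a log2 difference of -0.84 (SE 0.20, limma adjusted p = 0.0156). The adjusted p was 0.0532 without control replicate 2, 0.0122 after median-of-ratios scaling and 0.0227 without the third treated library. Within each library Ndufc2 was also lower relative to core subunits of the NADH-oxidising module, and these ratios depend on no scaling. The ratios here and for Sdhc, Atp5if1 and Cox7a2l below were chosen after the values were seen, so their separation adds no separate support. Relative to Ndufv1, Ndufc2 was 2.96, 2.97, 3.16 and 3.06 in the controls and 2.44, 2.46 and 2.49 in the treated libraries, without overlap. Relative to Ndufs1 it was 7.24, 7.997, 6.51 and 6.33 in the controls and 5.07, 3.98 and 5.21 in the treated libraries, also without overlap.

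These core subunits did not pass the test. Ndufv1, which binds NADH, had 95.2 to 117 TPM in the controls and 85.3, 71.1 and 55.6 TPM in the treated libraries (log2 difference -0.54, SE 0.20, adjusted p = 0.0894). Ndufs1, the largest iron-sulphur subunit, had 39.0 to 47.7 TPM against 41.1, 43.9 and 26.6 TPM (-0.27, SE 0.21, adjusted p = 0.392). For Ndufs1 only the third treated library left the control range, and its estimate was 0.00 after median-of-ratios scaling.

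Grouped by assembly module, a grouping made after the values were seen, the medians ran from -0.35 to -0.61. The 5 subunits of the module around mitochondrially encoded ND2 (Ndufc1, Ndufc2, Ndufa10, Ndufa11 and Ndufs5) had the lowest median, -0.61, against -0.38 for the 10 of the NADH-oxidising module. Ndufc1 had 132 to 209 TPM in the controls and 115, 115 and 90.3 TPM in the treated libraries (-0.64, SE 0.20, adjusted p = 0.0548). Ndufa11, whose promoter window is shown above, had 99.5 to 133 TPM against 87.7, 81.1 and 62.5 TPM (-0.61, SE 0.20, adjusted p = 0.0551). For both genes the groups did not overlap. Ndufa8, also shown above, had a difference of -0.67 (SE 0.22, adjusted p = 0.0564), and fell after median-of-ratios scaling (-0.39, adjusted p = 0.0496). Ndufa4, which carries a complex I name but is known to sit in complex IV, had 416 to 499.9 TPM against 378, 298 and 238 TPM (-0.56, SE 0.21, adjusted p = 0.0921). Its paralogue Ndufa4l2, known as a hypoxia-induced gene, was near the floor at 0.46 to 1.33 TPM against 0.57, 0.94 and 0.45 TPM.

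Complex II, succinate dehydrogenase, also works in the citric acid cycle, and 1 of its 4 members fell. Sdhc, one of the pair of membrane anchors, stood at 116, 155, 127 and 113 TPM in the controls and at 82.2, 86.8 and 63.2 TPM in the treated libraries. The groups did not overlap, and the third treated library was the lowest. Its mean fell from 128 ± 19.0 to 77.4 ± 12.5 TPM (SD, n = 4 and 3), a log2 difference of -0.72 (SE 0.20, limma adjusted p = 0.0315). The call was lost without control replicate 1, 2, 3 or 4 (adjusted p = 0.0571, 0.111, 0.0639 and 0.0520), and stood at 0.0496 after median-of-ratios scaling and 0.0481 without the third treated library.

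The other 3 subunits of complex II did not pass. Sdha, the flavoprotein that oxidises succinate, had 147 to 164 TPM in the controls and 153, 129 and 96.9 TPM in the treated libraries (-0.34, SE 0.20, adjusted p = 0.260). Sdhb, the iron-sulphur subunit, had 48.6 to 68.9 TPM against 52.3, 61.1 and 32.6 TPM (-0.35, SE 0.23, adjusted p = 0.314). Sdhd, the second anchor, had 80.1 to 106 TPM against 84.3, 75.1 and 50.5 TPM (-0.37, SE 0.21, adjusted p = 0.253). Relative to Sdha in the same library, Sdhc was 0.788, 0.946, 0.816 and 0.694 in the controls and 0.535, 0.674 and 0.652 in the treated libraries, without overlap. The same ratio overlapped between the groups for Sdhb (0.298 to 0.444 against 0.337 to 0.474) and Sdhd (0.492 to 0.647 against 0.521 to 0.583).

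Complex III, the cytochrome bc1 complex, had 9 tested members with a median of -0.49, and none passed the test. The 2 lowest estimates were those of the small subunits Uqcrq and Uqcr11, and another small subunit, Uqcrh, had the estimate nearest to 0 of the 9 (-0.23, SE 0.23, adjusted p = 0.511). Uqcrq had 149 to 197 TPM in the controls and 137, 114 and 81.7 TPM in the treated libraries (-0.64, SE 0.21, adjusted p = 0.0604), and Uqcr11 had 314 to 426 TPM against 281, 253 and 179 TPM (-0.63, SE 0.21, adjusted p = 0.0679). Uqcrb, which binds near the quinone site, had 512 to 570.2 TPM against 448, 397 and 307 TPM (-0.50, SE 0.20, adjusted p = 0.114). For these 3 genes all treated libraries lay below all controls. Cyc1, the cytochrome that passes electrons to cytochrome c, had 78.8 to 97.5 TPM against 79.8, 66.3 and 42.9 TPM (-0.49, SE 0.22, adjusted p = 0.144). Uqcrfs1, the Rieske iron-sulphur protein, had 84.0 to 104 TPM against 86.1, 89.3 and 55.9 TPM (-0.30, SE 0.21, adjusted p = 0.345). Uqcrc1, a core protein, had 85.1 to 109.9 TPM against 89.6, 80.4 and 56.4 TPM (-0.36, SE 0.21, adjusted p = 0.252). For Uqcrfs1 treated libraries 1 and 2 lay within the control range.

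Complex IV, cytochrome c oxidase, had 13 tested members with a median of -0.43, and none passed the test. Cox5b, a zinc-binding subunit, stood at 196, 195, 190.3 and 199.7 TPM in the controls and at 149.6, 153 and 107 TPM in the treated libraries. The controls lay close together and every treated library was below them. The log2 difference was -0.53 (SE 0.19, adjusted p = 0.0837), and Cox5b fell when the third treated library was left out (-0.37, adjusted p = 0.0417). Its partner Cox5a had 129 to 154 TPM against 125, 145 and 85.3 TPM (-0.28, SE 0.21, adjusted p = 0.374). The ratio of Cox5b to Cox5a overlapped between the groups, at 1.23 to 1.53 in the controls against 1.19, 1.05 and 1.26. Cox6b1, which joins the units of the dimer, had 651 to 709 TPM against 538, 481 and 441 TPM (-0.48, SE 0.19, adjusted p = 0.115). Cox7c had 777 to 899 TPM against 691, 629 and 451 TPM (-0.49, SE 0.22, adjusted p = 0.140). The most abundant member of all, Cox6c, averaged 1658 TPM in the controls and 1225 TPM in the treated libraries (-0.46, SE 0.23, adjusted p = 0.188).

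The isoforms of complex IV separated into a present and a nearly silent set. Cox4i1, the ubiquitous isoform of a regulatory subunit, had 434 to 592 TPM in the controls and 411, 429.9 and 277 TPM in the treated libraries, whereas its counterpart Cox4i2 did not exceed 0.26 TPM. Cox8a had 458 to 682 TPM against 509.7, 519.9 and 337 TPM, and Cox8b and Cox8c were listed at 0 in all 7 libraries. Cox6a1 had 321 to 471 TPM against 344, 327 and 230.5 TPM, and the muscle isoform Cox6a2 had 0.15 to 0.72 TPM against 1.30, 3.24 and 0.84 TPM. Cox6a2 was thus above the controls in each treated library, at levels at or near the filter. Of the genes named here, Cox4i1, Cox8a and Cox6a1 did not pass the test (adjusted p = 0.193, 0.266 and 0.193).

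Cox7a1, usually described as the isoform of heart and skeletal muscle, broke this pattern. It stood at 130, 163, 145 and 132 TPM in the controls and at 136, 105 and 79.2 TPM in the treated libraries (-0.44, SE 0.21, adjusted p = 0.176), with treated library 1 inside the control range. Its level was 0.567 to 0.642 of that of Cox7a2, the widely expressed isoform, in the controls and 0.714, 0.517 and 0.594 in the treated libraries. Striated muscle markers, 11 genes that include Ckm, Myh1 and Acta1, summed to only 1.30 to 3.25 TPM in any library, with Myh1 listed at 0, and brown fat markers to 0.680 to 2.10 TPM.

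Cox7a2l, a related protein that joins complexes III and IV into supercomplexes, stood at 193, 265, 237 and 207 TPM in the controls and at 258, 269.9 and 145 TPM in the treated libraries. Treated libraries 1 and 2 lay in or above the upper part of the control range, and the third lay below it. The log2 difference was -0.05 (SE 0.24, adjusted p = 0.907) as deposited. It was 0.23 with median-of-ratios scaling (adjusted p = 0.252) and 0.24 when the third treated library was left out (adjusted p = 0.293), so its sign depends on the scale and on the libraries kept. Relative to Cox7a2 in the same library it was 0.845, 1.01, 1.05 and 0.993 in the controls and 1.35, 1.32 and 1.09 in the treated libraries, without overlap. Cox7a2 itself had 208 to 262 TPM against 191, 204 and 133 TPM (-0.41, SE 0.20, adjusted p = 0.190).

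Complex V had 18 tested members with a median of -0.32, the nearest to 0 of the 5 complexes, and 1 fell. Atp5if1, the inhibitor that stops the enzyme from running backwards and hydrolysing ATP, stood at 642, 765, 682 and 652 TPM in the controls and at 499, 381 and 320.3 TPM in the treated libraries. All 3 treated libraries lay below all 4 controls. Its mean fell from 685 ± 56.1 to 399.96 ± 90.6 TPM (SD, n = 4 and 3), a log2 difference of -0.80 (SE 0.21, limma adjusted p = 0.0266). The call was lost without control replicate 1, 2, 3 or 4 (adjusted p = 0.0562, 0.0869, 0.0548 and 0.0590) or treated replicate 2 (adjusted p = 0.0781), and stood at 0.0226 after median-of-ratios scaling and 0.0366 without the third treated library.

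The catalytic subunits of the synthase, which Atp5if1 binds, did not pass the test. Atp5f1b, the beta subunit, had 469.9 to 540.2 TPM in the controls and 472, 477.5 and 318 TPM in the treated libraries (-0.27, SE 0.21, adjusted p = 0.387). Atp5f1a, the alpha subunit, had 183 to 236 TPM against 193, 200.3 and 126 TPM (-0.27, SE 0.21, adjusted p = 0.399). In both, treated libraries 1 and 2 lay within the control range and only the third lay below, and the ratio of alpha to beta was 0.408 in both group means. Atp5if1 relative to Atp5f1b was 1.37, 1.42, 1.34 and 1.32 in the controls and 1.06, 0.798 and 1.01 in the treated libraries, without overlap.

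**Figure D4:**
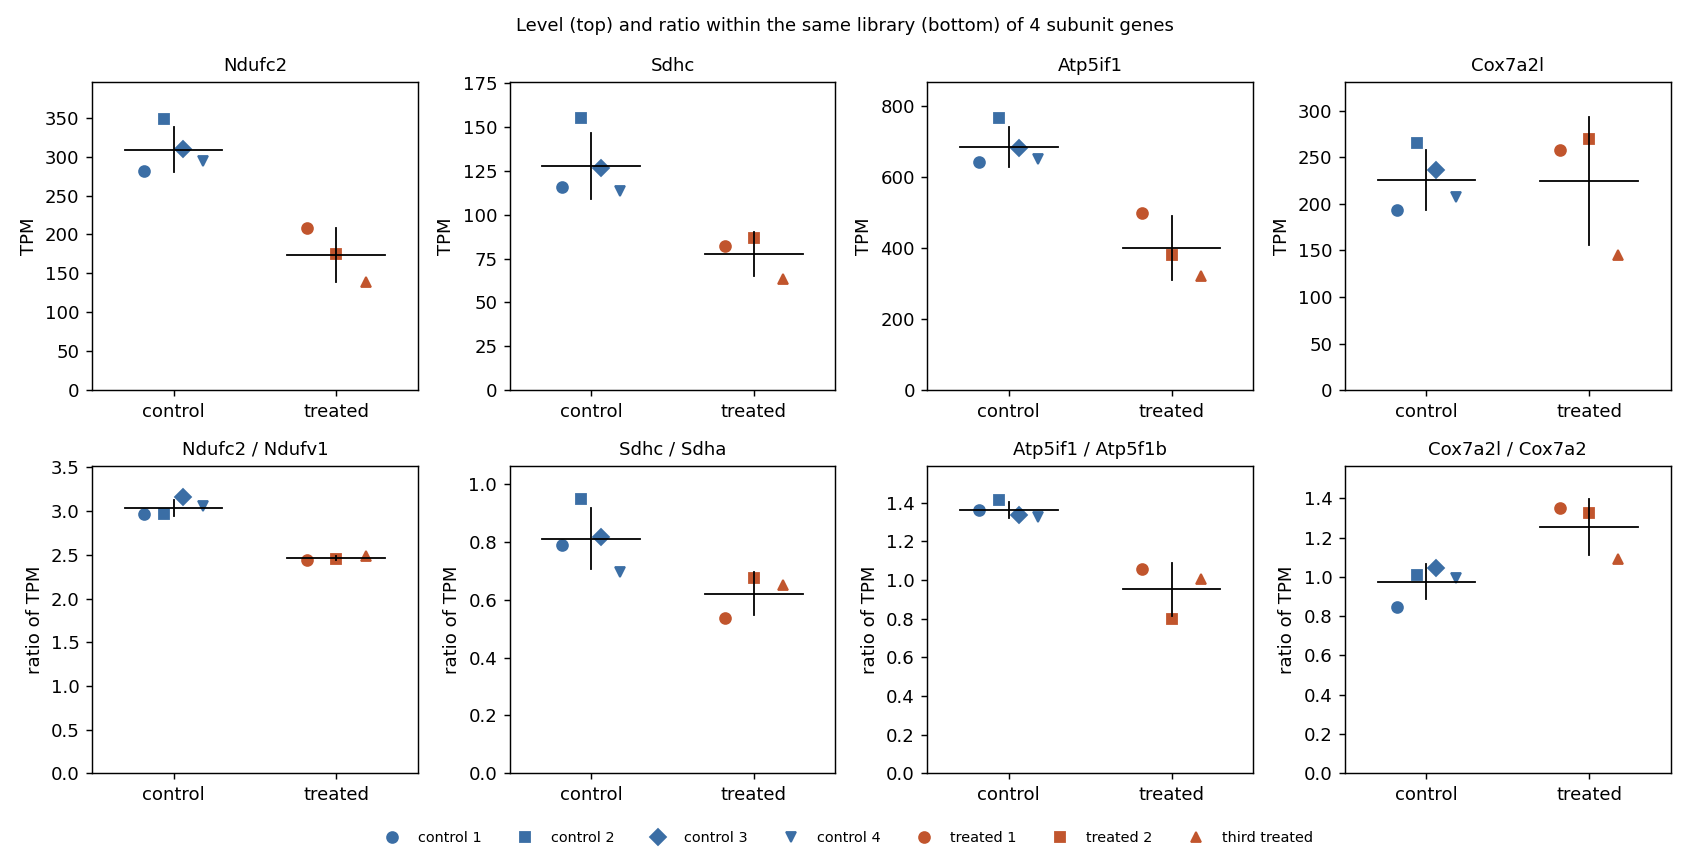
Level in TPM (top) and ratio of TPM to another subunit of the same complex in the same library (bottom) for Ndufc2, Sdhc, Atp5if1 and Cox7a2l; points are libraries, horizontal lines group means and vertical lines the SD (n = 4 control, 3 treated). The groups do not overlap in the 4 ratios, with Ndufc2, Sdhc and Atp5if1 lower and Cox7a2l higher in treated libraries, whereas the level of Cox7a2l overlaps. The ratios were chosen after the values were seen, so their separation adds no separate support.

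The c ring, the rotor through which protons pass, is built from 1 protein encoded by 3 genes. Atp5mc3 had 558 to 661 TPM in the controls and 541, 477 and 345 TPM in the treated libraries (-0.43, SE 0.21, adjusted p = 0.190). Atp5mc1 had 294 to 389 TPM against 293, 234 and 174 TPM (-0.53, SE 0.22, adjusted p = 0.117). Atp5mc2 was far lower, with 9.12 to 12.5 TPM against 8.95, 9.86 and 4.61 TPM (-0.51, SE 0.25, adjusted p = 0.186). Relative to Atp5mc3 in the same library, Atp5mc1 was 0.528 to 0.588 in the controls and 0.542, 0.492 and 0.503 in the treated libraries, so 2 of the 3 treated libraries lay below every control. The same ratio of Atp5mc2 overlapped between the groups, at 0.0149 to 0.0219 against 0.0165, 0.0207 and 0.0134. Atp5mk, a small membrane subunit and the second most abundant member, had 1003 to 1275 TPM against 872, 808 and 595 TPM (-0.58, SE 0.22, adjusted p = 0.0974).

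Across the 84 tested members control means ran from 0.96 TPM (Ndufa4l2) to 1658 TPM (Cox6c) with a median of 169.8 TPM, and 65 exceeded 100 TPM. The 9 members that did not reach the filter were Cox4i2 and Cox6a2 and 7 listed at 0 in every library, Cox6c2, Cox7b2, Cox8b, Cox8c, Ndufa11b, Ndufb11b and Ndufs6b. Markers of testis germ cells, where some of these copies are known to be expressed, did not exceed a sum of 0.46 TPM, with 4 of 6 listed at 0.

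The 13 subunit genes of the mitochondrial genome had a median difference of 0.35 with 2 estimates below 0. Without the third treated library the median was -0.01, with 7 of 13 below 0. As deposited, 0 of 13 passed the test (3 at an unadjusted p under 0.05). The ratio of nuclear to mitochondrially encoded subunit TPM was 0.117, 0.168, 0.169 and 0.119 in the controls and 0.115, 0.117 and 0.0392 in the treated libraries. Treated libraries 1 and 2 lay beside the lower controls and the third treated library far below. The group means were 0.143 ± 0.0294 and 0.0906 ± 0.0446 (SD, n = 4 and 3), a treated to control ratio of 0.632, which was 0.812 without the third treated library. Per complex this ratio in the third treated library was 0.0533 for complex I, 0.0652 for III, 0.0533 for IV and 0.0237 for V, against 0.149 to 0.199, 0.176 to 0.256, 0.166 to 0.259 and 0.0691 to 0.121 in the controls.

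Few other genes of the pathway passed the test. Of 124 genes in 7 lists, 120 were tested, 3 fell and 0 rose, beside the 7.59% of all genes that fell. Among 33 tested assembly factors of complexes II to V, 2 fell. Sco2, a copper chaperone of complex IV, averaged 5.37 ± 1.53 TPM in the controls and 2.45 ± 0.660 TPM in the treated libraries (SD, n = 4 and 3), a log2 difference of -0.87 (SE 0.26, limma adjusted p = 0.0426). Cox19, which helps deliver copper, averaged 37.3 ± 2.80 and 22.1 ± 5.46 TPM (-0.75, SE 0.21, limma adjusted p = 0.0306). Lonp1, the protease of the mitochondrial matrix, was the 1 of 17 mass markers that fell, from 74.1 ± 7.54 to 46.3 ± 10.3 TPM (-0.68, SE 0.20, limma adjusted p = 0.0402). All 3 calls were lost when single libraries were left out. Sco2 reached adjusted p = 0.0693 to 0.118 without control replicate 1, 2 or 3 or the third treated library, and Cox19 reached 0.0509 to 0.0804 without any 1 control or treated replicate 2. Lonp1 reached 0.0534 to 0.118 without any 1 control, treated replicate 2 or the third treated library.

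No gene passed the test among 16 assembly factors of complex I (median -0.28), 17 electron carriers and coenzyme Q enzymes (-0.32), 9 genes of ATP and proton handling (-0.31) or 15 regulators of mitochondrial gene expression (-0.17). At an unadjusted p under 0.05 there were 3, 3, 1 and 1 genes in these lists, beside 30.5% of all genes. Of the 16 assembly factors of complex I, which build the enzyme but are not part of it, 16 had estimates below 0 as deposited, 12 without the third treated library and 8 after median-of-ratios scaling. The 17 tested mass markers had a median of -0.30, between that of all genes and that of the subunits. After median-of-ratios scaling the medians of the 6 nuclear lists lay between -0.05 and 0.06 while that of the subunits was -0.13.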

How the data were processed

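The authors deposited 1 table of TPM values for 7 libraries, with 149132 transcript rows, nearly all with a gene symbol. The submitters' processing notes name fastp, HISAT2, StringTie and build mm39; their roles and versions are not given in the sources used here. TPM was summed per symbol (56422), leaving out 1001 rows without one (0.307% to 0.618% of TPM). Names matched 6 of 7 columns to single samples; the column of the third treated library names only its group, and there were 0 other columns of values. Depth is unknown, and libraries had 13914 to 14949 genes at a TPM of at least 1.

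The 14967 genes at 1 TPM or above in 3 or more libraries were compared on log2(TPM + 1) of the deposited values, 4 control against 3 treated, in R 4.3.3 with limma 3.58.1 (intensity trend, Benjamini-Hochberg over all genes, call at 0.05). The code was tested on simulated data. Sums, ratios and motif counts (Python 3.11.15) carry no test. The members and lists were chosen with earlier results of these data known. Named genes are the called members, the 3 with the smallest p in each complex, a fixed set of core and isoform genes and called genes of the pathway lists. Chosen after their values were seen were the ratios, the modules of complex I and Ndufa8, Ndufa10, Ndufs5, Ndufb4, Ndufb4b, Ndufb4c, Cox6b2, Cox6c, Uqcrh, the members listed at 0 and the marker genes named singly. Of 18 mass markers, Phb1 was not matched in the table. Items not reported here singly stay in the fits and counts. Promoters were matched by symbol, 69 of 93. Alternatives changed the pseudocount, filter, scaling, variance model, library weights and replicate block, and left out libraries. Alternatives chosen after seeing the data were the removal of 4 mitochondrial-like pseudogenes together with mitochondrially encoded genes, and median-of-ratios scaling without the third treated library.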

Additional observations from a re-analysis of the deposited data

Results flagged for a closer look

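Among 75 sets of 4 control values checked, 3 had 1 library apart from the others by more than Dixon's critical gap for 4 samples, as a share of their range, and chance flags about 1 in 20 sets. Control library 2 had 117 TPM of Ndufv1, the NADH-binding subunit of complex I, where the other controls had 95.2 to 98.0 TPM, a gap of 0.873 of the range. The same library summed to 8849 TPM over complex I after mitochondrially encoded genes were left out, where the others had 7659 to 7689 TPM, a gap of 0.975. Control library 4 had a ratio of Uqcrc1 to Uqcrc2, the core proteins of complex III, of 0.847, where the others had 0.903 to 0.912, a gap of 0.861.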

How the results depend on the processing

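TPM carries no depth, so counting error could not be set against these differences, and 7 libraries limit the precision. Each result was recomputed under 20 alternatives, in which the 38 tested named genes gave 753 values. Of these, 634 kept their direction and their side of the threshold, 49 lost a call, 48 gained one and 22 changed sign. Ndufc2 stayed below 0 in all 20 (log2 difference -0.98 to -0.56) and was called in 17, Atp5if1 (-0.97 to -0.52) in 12 and Sdhc (-0.81 to -0.44) in 12. The ratios of summed TPM stayed below 1 in every alternative run on them. Where a value moved, the cause was not tested. Testing without a filter adds genes to the variance fit and to the adjustment, and leaving out libraries reduces their number. How far either moved a value was not tested.

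Over all genes, against 1136 lower and 643 higher, the test gave 4 lower and 3 higher with no filter on low values (29687 genes), and 1377 higher after median-of-ratios scaling. It gave 1872 lower after leaving out mitochondrially encoded genes and 1237 higher when like pseudogenes were left out too. With array weights there were 4221 lower and 2246 higher. Leaving out 1 library gave 585 to 2909 lower and 388 to 794 higher. Lower genes numbered 267 without control replicate 3 and the third treated library together, and 456 with median-of-ratios scaling and the third treated library left out.

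Against 3 subunits lower and 0 higher, there were 0 lower with no filter, 18 lower and 1 higher after leaving out mitochondrially encoded genes, and 14 lower and 1 higher when like pseudogenes were left out too. There were 7 lower with the robust variance, 33 with array weights and 0 to 27 leaving out 1 library. There was 1 without control replicate 3 and the third treated library together. With the robust variance the share of subunits called lower was below that of all genes. With array weights, and in the fits without mitochondrially encoded genes, it was above that of all genes. Median-of-ratios scaling gave 1 higher and a median log2 difference of -0.13, also -0.13 when the third treated library was left out as well.

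By complex, the fit gave 1, 1, 0, 0 and 1 lower of 40, 4, 9, 13 and 18 tested in complexes I to V. That stood beside 7.59% of all genes. No filter gave 0 in I, II and V. A TPM of at least 5 gave 2 in I, and median-of-ratios scaling gave 2 in I and, without the third treated library, 0 in II. Leaving out mitochondrially encoded genes gave 11 in I, 3 in III, 1 in IV and 2 in V, and leaving out like pseudogenes too gave 8, 2, 1 and 2. The robust variance gave 4 in I and 1 in III, and array weights 18 in I, 5 in III, 5 in IV and 4 in V. Leaving out 1 library gave 0 to 15 in I, 0 to 1 in II, 0 to 5 in III, 0 to 3 in IV and 0 to 3 in V. Without control replicate 3 and the third treated library together there were 0 in II and V.

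In the pathway lists, against 3 lower and 0 higher, there were 0 lower with no filter, 5 after median-of-ratios scaling, 12 after leaving out mitochondrially encoded genes and 11 when like pseudogenes were left out too. Array weights gave 25 of 120 lower, beside 28.2% of all genes, and 2 higher, and the robust variance 1 higher. Leaving out 1 library gave 0 to 21 of 120 lower, with 21 without treated replicate 1, beside 19.8% of all genes. There were 0 lower without control replicate 3 and the third treated library together, and 1 with median-of-ratios scaling and the third treated library left out.

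Replicate numbers 1 and 2 occur in both groups, but the labels do not say that they pair the libraries. Deviations of same-numbered libraries correlated at -0.02 and -0.09 across genes. With a replicate block over these numbers there were 135 lower genes against 1136 and 0 lower subunits against 3, with 0 in complexes I, II and V, and 0 lower in the pathway lists.

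Single genes whose difference changed sign were mostly near 0 and did not pass the test there. After median-of-ratios scaling Atp5f1a was 0.0098, Atp5f1b 0.0063, Cox7a2l 0.23 and Ndufs1 0.0029. With that scaling and without the third treated library Atp5f1a was 0.032, Atp5f1b 0.0091, Cox5a 0.027, Cox7a2l 0.33, Ndufs1 0.039 and Uqcrfs1 0.0071. With array weights Atp5f1a was 0.018, Cox5a 0.051, Cox7a2l 0.33, Ndufa4l2 0.066 and Sdhb 0.048. With the replicate block Cox7a2l was 0.22 and Ndufs1 0.044. Cox7a2l was also 0.061 after leaving out mitochondrially encoded genes, 0.15 when like pseudogenes were left out too and 0.032 without control replicate 2. It was 0.24 without the third treated library and 0.26 without control replicate 3 as well. Without treated replicate 2 Cox7a2l kept its sign, at -0.21.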
